A study of Rattus norvegicus with 12 samples.

Results

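The miRNAs cut from the transcript that runs antisense to Rtl1 were measured in hippocampal tissue from 12 adult Sprague Dawley males. The members are all listed mature arms of the 5 hairpins miR-431, miR-433, miR-127, miR-434 and miR-136, which made 9 of the 753 mature miRNAs in the count lists (miR-431 is listed as a single arm, the others as a 3p and a 5p arm). All 9 were kept among the 420 miRNAs that were read often enough to be tested. One small RNA library per rat came from the right hippocampus (called dorsal hippocampus in the study), 3 h after an intraperitoneal injection of ethanol at 4 g/kg (n = 8) or of vehicle (n = 4), at an age of P70 to P80. Further vehicle rats of the study were not analysed here.

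Rtl1 is a gene of retrotransposon origin that is expressed from the paternal chromosome of the imprinted Dlk1-Dio3 region. The opposite strand is transcribed from the maternal chromosome, and the miRNAs cut from that transcript are fully complementary to Rtl1 RNA and can direct its cleavage. The same maternal strand carries a long series of further miRNAs, most of which are known for high levels in brain and in neurons. Each hairpin is cut into a short duplex, and either arm of it, called 5p or 3p after its place in the hairpin, can be loaded into Argonaute to guide the silencing of target RNAs. The seed, bases 2 to 8 of the mature miRNA, leads this pairing.

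RefSeq's rat annotation on build GRCr8 places the 5 hairpins on the + strand of chromosome 6, in the order miR-431 (chr6:134326449-134326562), miR-433 (chr6:134327358-134327450), miR-127 (chr6:134328454-134328550), miR-434 (chr6:134330402-134330482) and miR-136 (chr6:134331335-134331416). They span 4968 bases, with gaps of 795 to 1851 bases between successive members, and all 5 lie inside the span annotated as Rtl1. By start position, the annotation also places Mir3543, which is not a member, between miR-127 and miR-434. Mature sequences were found in the RefSeq table for 7 of the 9 arms. They are shown because they are the molecules counted here, with the seed in capitals:

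rno-miR-431: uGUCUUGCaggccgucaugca
rno-miR-433-5p: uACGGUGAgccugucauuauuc
rno-miR-433-3p: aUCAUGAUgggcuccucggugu
rno-miR-127-3p: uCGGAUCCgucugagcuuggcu
rno-miR-434-5p: aGCUCGACucaugguuugaacca
rno-miR-434-3p: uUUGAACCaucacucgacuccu
rno-miR-136-3p: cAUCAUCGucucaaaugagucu

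The arms without an entry are rno-miR-127-5p and rno-miR-136-5p. The 7 seeds all differed, and none of them was shared with any other of the 693 mature names in the table. These 7 arms, known to come from 1 transcript, thus do not form a seed family. The seeds of the arms without an entry were not compared. Lengths were 21 to 23 bases and GC content was 40.9% to 59.1%. By its place in the hairpin, at bases 20 to 40 of 114, the single listed miR-431 lies on the 5p side.

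The arms of miR-434 share a stretch of letters. In the hairpin, written with the mature arms in capitals, the run UUUGAACCA occurs 3 times, once in each arm and once at the 5′ end outside them:

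Mir434: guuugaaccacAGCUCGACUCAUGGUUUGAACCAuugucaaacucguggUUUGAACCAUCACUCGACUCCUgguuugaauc

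This run of 9 bases ends the 5p arm and begins the 3p arm. A common run of that length or more was found in 5 of 264 hairpins with 2 mature entries, against a median of 4 bases. The deposited count of miR-434-3p was fractional in 12 of 12 libraries and that of miR-434-5p in 0. Of the other members, miR-127-3p was fractional in 4 libraries, miR-433-3p in 2 and miR-136-5p in 1. Fractional values were found in some library for 222 of the 753 miRNAs. A part of the shared run in the fractional counts of miR-434-3p was not tested.

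Library totals ranged from 1960702 to 4917929 counts. The floor of detection, taken as 3 counts, thus corresponded to 0.61 to 1.53 per 1000000 counts, before TMM factors. All CPM values given here are counts scaled to a library total of 1000000 after TMM factors. These floors cover counting error only. The neuron-rich miRNAs fixed as markers (miR-124-3p, miR-9a-5p, miR-128-3p, miR-138-5p and miR-137-3p) summed to 30300 to 38500 CPM. The 4 choroid plexus markers, among them miR-204-5p, summed to 29000 to 50300 CPM after vehicle and to 16500 to 70900 CPM after ethanol, and ethanol rats 3 and 8 were at the ends of this range. Muscle markers ranged from 112 to 1770 CPM, blood cell markers from 56.6 to 298 CPM and oligodendrocyte markers from 8440 to 17400 CPM. The labels do not say which libraries were sequenced together, but those of vehicle rats 19 and 20 and ethanol rats 23 and 24 stood apart. Their miR-409a-3p was 5.11 to 6.28 times as high as miR-409a-5p, against 1.53 to 2.32 times in the other 8 libraries (vehicle rats 9 and 10 and ethanol rats 3, 4, 7, 8, 15 and 16). The log2 CPM of 8 of the 420 miRNAs, none of them a member, did not overlap between the 4 and the 8 libraries.

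The Rtl1 antisense miRNAs were abundant, and 1 arm supplied most of their reads. Together they made up 3.29% to 4.5% of the counts of each library and 64.4% to 73.4% of the CPM of all miRNAs listed here from the Dlk1-Dio3 region. miR-127-3p, the arm of the set best known from work on other tissues, where BCL6 is a reported target, alone gave 56.7% to 76.3% of the members' sum. Mature miRNAs are of nearly equal length, so their CPM can be set side by side without a length correction, although ligation and amplification favour some sequences over others.

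**Figure D1:**
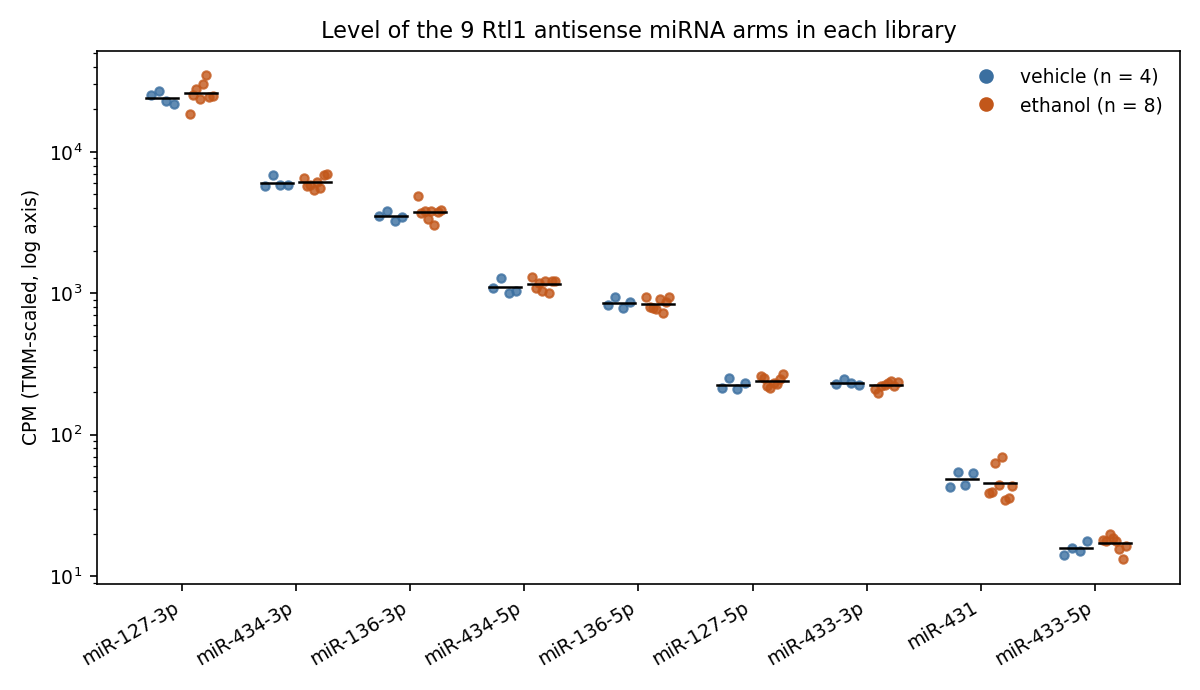
Level of each of the 9 arms in each library, in CPM on a log axis, with arms ordered by their median (points are rats, blue vehicle, n = 4, and orange ethanol, n = 8, and black bars are group means). The order runs from miR-127-3p at a median of 24810 CPM to miR-433-5p at 17.14 CPM, and vehicle and ethanol points overlap in every arm.

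miR-127-3p had a median of 24810 CPM, rank 11 of the 753 miRNAs by median. Its values were 25090, 27110, 22750 and 21810 CPM in vehicle rats 9, 10, 19 and 20, and ran from 18580 over a median of 24810 to 34920 CPM in the 8 ethanol rats. Both ends of the range were ethanol libraries, rat 3 the lowest and rat 16 the highest, and the vehicle values lay between them. The 5p arm, miR-127-5p, was far lower, at a median of 231.3 CPM. It read 212.7, 251.5, 209.6 and 230.9 CPM in the same vehicle rats, and 212.3, 239.8 and 267.2 CPM as the lowest, median and highest after ethanol. These values overlapped almost wholly, and rat 16, the highest in the 3p arm, was in the middle here at 229.9 CPM.

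The arms of miR-434 and miR-136 followed. miR-434-3p, at rank 30, read 5701, 6803, 5822 and 5787 CPM in vehicle rats 9, 10, 19 and 20 and 5400, 5989 and 6954 CPM as the lowest, median and highest after ethanol. miR-434-5p, at rank 78, read 1095, 1274, 1006 and 1034 CPM after vehicle and 1006, 1197 and 1300 CPM after ethanol. Vehicle rat 10 was the highest of its group in both arms, and the groups overlapped in both.

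miR-136-3p, at rank 39, read 3541, 3829, 3266 and 3447 CPM after vehicle and 3016, 3784 and 4864 CPM after ethanol. The lowest value was again in ethanol rat 16 and the highest in ethanol rat 3, the reverse of miR-127-3p. miR-136-5p, at rank 86, read 829.2, 935.8, 783.5 and 872.4 CPM after vehicle and 726.3, 839.0 and 944.5 CPM after ethanol, again with rat 16 the lowest.

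miR-433-3p and miR-433-5p, arms of a miRNA for which FGF20 is a reported target, ranked 137 and 307. miR-433-3p read 229.2, 248.5, 231.1 and 224.3 CPM after vehicle and 197.8, 222.7 and 240.1 CPM after ethanol, with 5 of the 8 ethanol libraries below all 4 vehicle libraries. miR-433-5p read 14.2, 15.75, 15.14 and 17.87 CPM after vehicle and 13.13, 17.86 and 19.93 CPM after ethanol, on 37 to 84 counts per library. miR-431, known for a part in axon regeneration, ranked 240. It read 42.93, 54.47, 44.37 and 53.83 CPM after vehicle and 34.4, 41.15 and 69.48 CPM after ethanol, and the highest values, 69.48 in rat 15 and 62.92 in rat 7, were both ethanol libraries.

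The order of the 9 levels held within every library for 7 of the 8 neighbouring pairs, with no overlap of their ranges. The exception was miR-127-5p and miR-433-3p, where each was the higher in 6 of 12 libraries and the median ratio was 1.0. The arms differed in how much they varied between rats. The coefficient of variation over the 12 libraries was 5.85% for miR-433-3p, 8.28% for miR-127-5p, 8.84% for miR-136-5p, 8.99% for miR-434-3p and 9.52% for miR-434-5p, all below 11.8%, the median of the 212 miRNAs with at least 100 reads in every library. miR-136-3p at 12.4% and miR-127-3p at 16.4% were above it. Counting error alone would give miR-127-3p 0.377%, so nearly all of its spread lay between libraries. For miR-433-5p the spread was smaller than the 14.6% that its counting error gives, and for miR-431, at 23.4%, counting error gives 8.89%.

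The comparison of ethanol with vehicle asked whether a single high dose changed these miRNAs within hours. No member passed the test. In the quasi-likelihood test of edgeR, adjusted by Benjamini-Hochberg across the 420 miRNAs, 0 of 9 arms had an adjusted p under 0.05 (0% of all miRNAs tested), and 0 of 9 had a raw p under 0.05, where 17 of the 420 (4.05%) did. Log2 fold changes of the members were 6 above and 3 below 0, with a median of 0.07 against −0.02 over all 420 miRNAs. In a bulk sample, fewer cells of a type and less RNA per cell cannot be told apart.

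**Figure D2:**
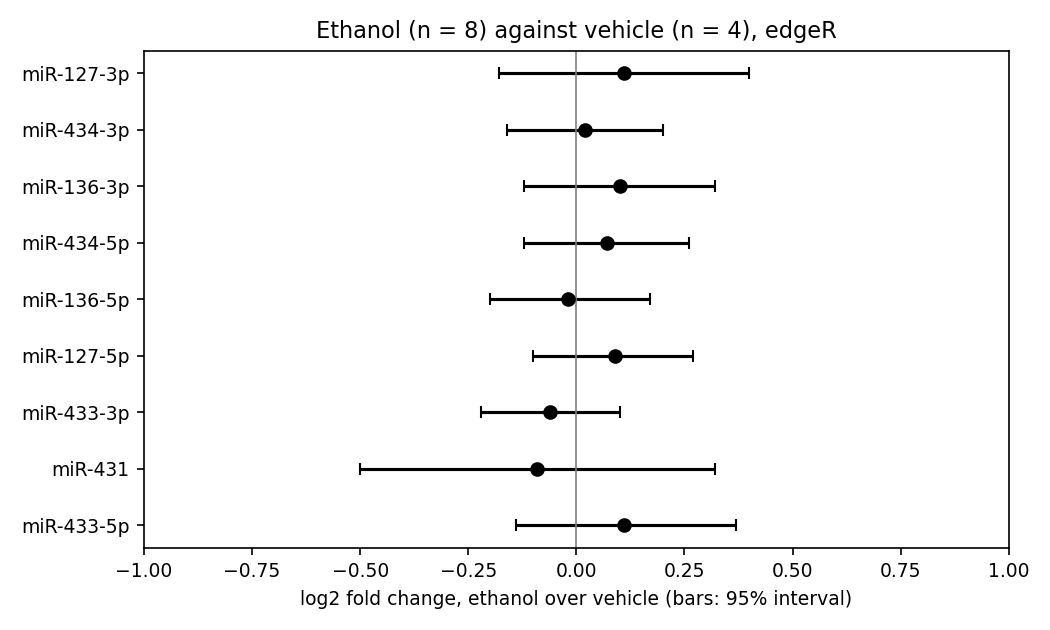
Log2 fold change of each arm, ethanol over vehicle, from edgeR's quasi-likelihood test, with arms ordered by level (points are estimates and bars 95% intervals). Every interval includes 0, and the widest, for miR-431, runs from −0.50 to 0.32.

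The most abundant arm, miR-127-3p, was 24190 ± 2384 CPM after vehicle (SD, n = 4) and 26100 ± 4857 CPM after ethanol (SD, n = 8). Its log2 fold change was 0.11 (SE 0.13, 95% interval −0.18 to 0.40, edgeR adjusted p = 0.971), with ethanol libraries on both sides of the vehicle range (1 below it and 3 above). miR-136-3p had the smallest edgeR p of the members, at raw p = 0.331, and its log2 fold change was 0.10 (SE 0.10, 95% interval −0.12 to 0.32). miR-433-3p had the smallest p in the exact permutation test of log2 CPM, at 0.244, with a log2 fold change of −0.06 (SE 0.073, 95% interval −0.22 to 0.10). These intervals set the size of change that the libraries could have missed. For 8 of the 9 arms the interval lay within 0.5 of 0 on the log2 scale, and that of miR-431 reached −0.50. Exact permutation p-values of the members ranged from 0.244 to 0.814, and the smallest value that the assignments of 4 and 8 libraries allow is 0.00202.

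Within the 8 libraries of rats 3 to 16 (2 vehicle, 6 ethanol), 0 of 9 members had a raw edgeR p under 0.05, against 4.76% of all 420. Within the 4 libraries of rats 19 to 24, of which 2 were from each group, miR-434-3p and miR-434-5p did in the edgeR fit, at log2 fold changes of 0.26 and 0.27, against 7.86% of all 420, and the lowest adjusted p of a member was 0.61. In the 8 libraries of rats 3 to 16 the same arms had values of the other sign, −0.09 and −0.06. With these 4 libraries as a term in the edgeR fit of all 12, miR-434-3p was at 0.04 and miR-434-5p at 0.07, and 0 members had a raw p under 0.05.

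Of the other Dlk1-Dio3 miRNAs, 85 were listed and 64 were kept. The 3 most abundant were miR-541-5p at a median of 3740 CPM, miR-410-3p at 3350 CPM and miR-300-3p at 2470 CPM, the first of them close to miR-136-3p at 3747 CPM. Over the 64, 29 log2 fold changes were above and 35 below 0, with a median of −0.02. At a raw edgeR p under 0.05 stood 3 higher and 1 lower (6.25%) and at an adjusted p under 0.05 stood 0. In the edgeR fit the 4 were miR-134-5p, known for controlling the size of dendritic spines, at 0.30, miR-380-5p at 0.44, miR-770-5p at 0.39 and miR-154-5p at −0.43, each with an edgeR adjusted p of 0.971. None of the 4 lies between miR-431 and miR-136.

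The ratio of the arms of a hairpin is taken within a library, so it needs no scaling between libraries. The 3p arm was the more abundant in all 12 libraries for each of the 4 hairpins with both arms listed, but to very different degrees. For miR-127 the 3p arm was 71.9 to 152 times the 5p arm (median 108), and only 16 of the 122 hairpins with both arms kept had a median log2 ratio above 6. For miR-433 the ratio had a median of 13.6 and reached 16.7, for miR-434 4.97 to 5.79 (median 5.29) and for miR-136 3.95 to 5.18 (median 4.22). The ranges of miR-127, miR-433 and the remaining pair did not overlap, and those of miR-434 and miR-136 did.

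**Figure D3:**
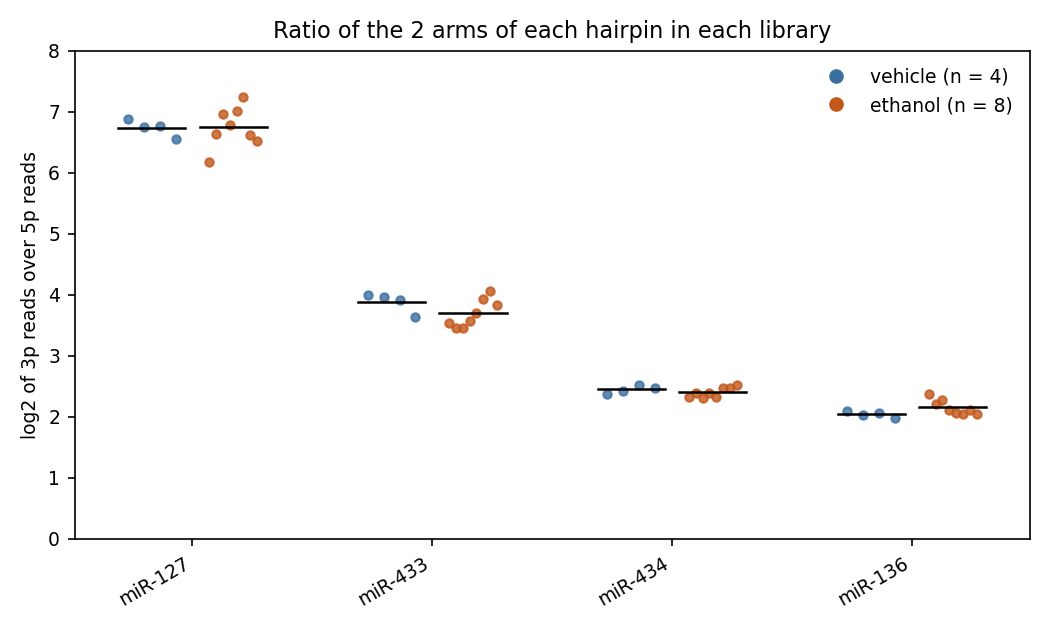
Log2 of 3p reads over 5p reads for each hairpin with both arms listed, in each library (points are rats, blue vehicle, n = 4, and orange ethanol, n = 8, and black bars are group means). miR-127 spreads from 6.17 in ethanol rat 3 to 7.25 in ethanol rat 16, while miR-434 stays between 2.31 and 2.53.

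The measured ratio of the arms varied less between libraries for miR-434 and miR-136 than for miR-433 and miR-127. The SD of the log2 ratio over the 12 libraries was 0.0765 for miR-434, with only 1 of 122 hairpins below it, and 0.112 for miR-136, with 8 below it. It was 0.222 for miR-433, with 40 below it, and 0.276 for miR-127, with 55 below it. Both were under 0.295, the median over the 122 hairpins, which include many arms with few reads. The 5p arm of miR-433 also had few reads, at 37 to 84 counts per library. Counting error alone gives that arm a coefficient of variation of 14.6%, and counting error was not removed from these SDs. A varying balance of the miR-433 arms can therefore not be read from its SD. The miR-434 ratio stood at 5.56 to 5.79 in the libraries of rats 19, 20, 23 and 24 and at 4.97 to 5.53 in the other 8, with no overlap, as in 5 of the 122 hairpins.

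None of the 4 ratios differed between ethanol and vehicle beyond the spread of the libraries. On the log2 scale, ethanol minus vehicle was 0.11 for miR-136 (exact permutation p = 0.0869), −0.19 for miR-433 (exact permutation p = 0.18), −0.05 for miR-434 (exact permutation p = 0.279) and 0.01 for miR-127 (exact permutation p = 0.962), with p-values adjusted over all 122 hairpins of 0.965 to 0.978. At a raw p under 0.05 stood 1.64% of the 122 hairpins. For miR-136 the vehicle ratios were 2.09, 2.03, 2.06 and 1.98 on the log2 scale and the ethanol ratios ran from 2.05 to 2.37, and 5 of the 8 ethanol libraries lay above all vehicle libraries. For miR-433 the vehicle ratios were 4.0, 3.96, 3.92 and 3.64 and the ethanol ratios ran from 3.45 to 4.06, with 4 of 8 ethanol libraries below all vehicle libraries. Within the 8 libraries of rats 3 to 16 the miR-433 difference was −0.37 (exact permutation p = 0.0357, the smallest that 28 assignments allow, adjusted p = 0.934, raw p under 0.05 in 2.46% of hairpins). Within the 4 libraries of rats 19 to 24 it was 0.17, of the other sign.

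Since the members are known to come from 1 transcript, it was asked whether their levels rose and fell together over the 12 rats. Over the 36 pairs of members the median Pearson r of log2 CPM was 0.16, against −0.01 over all 87990 pairs of kept miRNAs, and 14 of the 36 were negative. Among pairs of the other Dlk1-Dio3 miRNAs kept, the median was 0.16 as well. The members' median was 0.07 without vehicle rat 10 or without ethanol rat 15. It was 0.36 with scaling by library totals alone and 0.35 without both ethanol rats 3 and 16. Only miR-136-3p with miR-434-5p passed adjustment over all pairs, as did 0.167% of all pairs. Its Pearson r was 0.86 (permutation p = 1e-05, the smallest that 100000 permutations give, adjusted p = 0.014), its Spearman rho was 0.92 (permutation p = 8e-05, adjusted p = 0.055), and r was 0.92 without ethanol rats 3 and 16, farthest from the median of miR-136-3p.

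**Figure D4:**
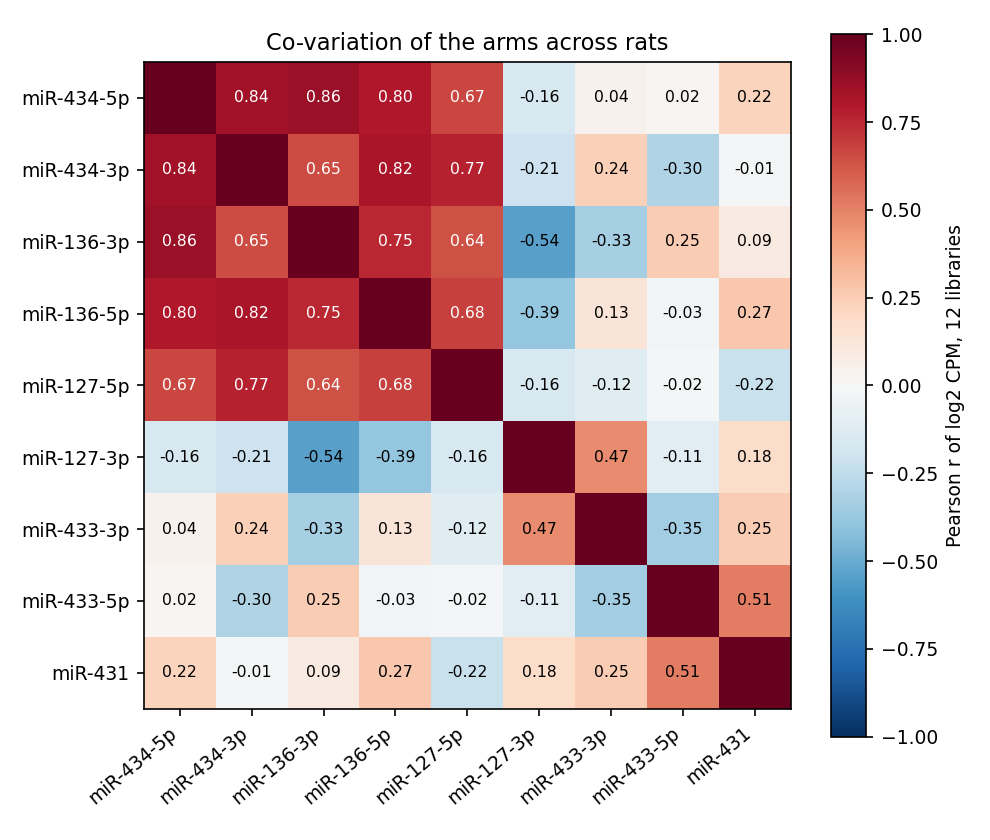
Pearson r of log2 CPM between every pair of arms over the 12 libraries (red positive, blue negative, arms ordered by hand). The 5 arms miR-434-5p, miR-434-3p, miR-136-3p, miR-136-5p and miR-127-5p form a block of 0.64 to 0.86, and miR-127-3p is at −0.54 to −0.16 with each of them.

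The 5 arms miR-434-5p, miR-434-3p, miR-136-3p, miR-136-5p and miR-127-5p, grouped after their values were seen, had r of 0.64 to 0.86 with each other (10 pairs, median 0.76). Their rho was 0.71 to 0.92, and r was 0.60 to 0.86 with values centred on the group means and 0.66 to 0.95 with values centred within rats 3 to 16 and within rats 19 to 24. As single pairs, 9 of the 10 did not pass the adjustment, with adjusted p of 0.15 to 0.37 where the raw permutation p was at most 0.02. The remaining 26 pairs had r of −0.54 to 0.51, with a median of −0.02. Outside the members, r of miR-434-5p was 0.90 with miR-300-3p and 0.87 with miR-341. Its median over the 64 other Dlk1-Dio3 miRNAs was 0.41.

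Levels of miR-434-5p, miR-136-3p and miR-136-5p were lower in libraries where choroid plexus markers were higher. Against the mean log2 CPM of the 4 markers, a relation looked for after the data were seen, Pearson r was −0.86 for miR-434-5p (permutation p = 0.00014, adjusted p = 0.0057), −0.79 for miR-136-3p (permutation p = 0.0015, adjusted p = 0.036) and −0.76 for miR-136-5p (permutation p = 0.0034, adjusted p = 0.049), with adjustment over 416 miRNAs. These were 3 of the 9 members, against 6.97% of the 416. By rank, rho was −0.92 for miR-434-5p (permutation p = 6e-05, adjusted p = 0.0025), −0.87 for miR-136-3p (permutation p = 0.00047, adjusted p = 0.013) and −0.77 for miR-136-5p (permutation p = 0.0051, adjusted p = 0.071, not passed). Without ethanol rats 3 and 15, farthest from the median of the marker mean, r was −0.87, −0.71 and −0.71.

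For the other members the relation did not pass, with r of −0.66 for miR-434-3p (adjusted p = 0.18), −0.51 for miR-127-5p (0.41), −0.30 for miR-431 (0.75), −0.04 for miR-433-3p (0.98), −0.01 for miR-433-5p (1.0) and 0.14 for miR-127-3p (0.90). The median over all 416 miRNAs was −0.01, and over the 64 other miRNAs of the region −0.34, of which 8 passed. After a straight-line fit of log2 CPM on the marker mean, the residuals had r of 0.27 to 0.70 among the 5 arms (median 0.54) and 0.58 for miR-136-3p with miR-434-5p. Over all 36 pairs of members, the residuals had a median r of 0.05, and 16 of the 36 were negative. Muscle markers were at r of −0.78 to −0.52 with the 5 arms and neuron-rich markers at −0.19 to 0.43, and their part in the result was not tested. When that marker mean was added to the edgeR fit, 0 of 9 members had a raw p under 0.05 for ethanol against vehicle.

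miR-127-3p had a negative r with 6 of the 8 other members and a positive one with miR-433-3p (0.47) and miR-431 (0.18). Its r was −0.16 with miR-127-5p (permutation p = 0.63, adjusted p = 0.92), the other arm of its own hairpin, and −0.54 with miR-136-3p (permutation p = 0.07, adjusted p = 0.52). These values moved with ethanol rats 3 and 16, the libraries in which miR-127-3p was lowest and highest. With miR-127-5p, r was 0.08 without rat 3 alone, −0.14 without rat 16 alone and 0.17 without both. With miR-136-3p, r was −0.18 without rat 3, −0.31 without rat 16 and 0.69 without both. Leaving out either of these rats alone did not turn the sign for that pair. With miR-434-5p, r was −0.16 over all 12 libraries, 0.15 without rat 3, 0.14 without rat 16 and 0.72 without both. Without both rats, all 8 of its pairs with members were positive (0.17 to 0.72).

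**Figure D5:**
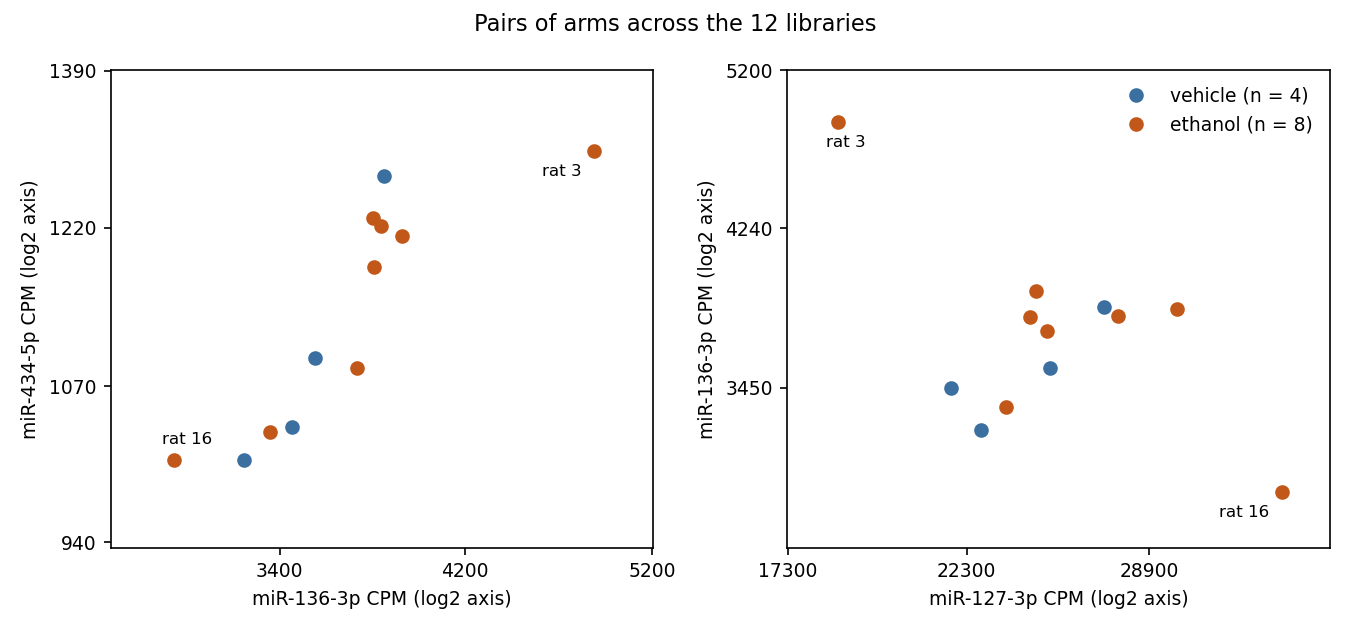
Level of miR-434-5p against miR-136-3p (left) and of miR-136-3p against miR-127-3p (right) in the 12 libraries, in CPM on log2 axes (blue vehicle, orange ethanol, ethanol rats 3 and 16 named). On the left the points follow 1 rising line, while on the right rats 3 and 16 lie at opposite corners and the other 10 libraries rise (r = 0.69).

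Arms of 1 hairpin did not share a common degree of co-variation. The r between arms was 0.84 for miR-434, 0.75 for miR-136, −0.16 for miR-127 and −0.35 for miR-433, where miR-433-5p carries few reads. Over the 122 hairpins the median was 0.38, with 31 negative and 27 above 0.7.

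Few single pairs with the rest of the Dlk1-Dio3 region passed adjustment. Of the 576 pairs between a member and another miRNA on the Dlk1-Dio3 list, 2 (0.347%) did, against 0.167% of all pairs. The median r of the 576 was 0.2. Of the 3123 pairs with the 347 miRNAs off the list, 0 passed and the median was −0.05. Some miRNA genes annotated between Dlk1 and Dio3, such as Mir3543 and Mir1247, are not on the list. Any of them that were kept would be among the 347. By member, the median r with the region ran from 0.41 for miR-434-5p and 0.37 for miR-136-5p down to 0.06 for miR-433-5p and 0.03 for miR-127-3p. Single values for miR-434-5p ran from −0.44 to 0.90, the highest with miR-300-3p. The 5 miRNAs most like the mean of the standardized members over the 12 libraries were miR-300-3p (r = 0.90), miR-341 (0.87), miR-376b-5p (0.83), miR-329-5p (0.81) and miR-370-5p (0.81), the last on few reads at a median of 4.23 CPM. Their rho was 0.84 to 0.88 and r without the 2 libraries farthest from the members' median was 0.72 to 0.87. All 5 are on the Dlk1-Dio3 list, as were 13 of the 20 most alike, where 15.6% of the kept miRNAs outside the members are on it. For miR-127-3p alone, looked up after the values were seen, the 5 most alike were miR-221-5p (r = 0.77), miR-212-5p (0.72), miR-877 (0.71), miR-344b-5p (0.70, and 0.13 without ethanol rats 3 and 16) and miR-361-5p (0.66), none of them on the list.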

How the data were processed

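Small RNA of 20 to 30 nt was sequenced by the authors from 1 µg of total RNA per rat (37 cycles, sets of 8 libraries). Per the labels and the deposited files, each library is a list of expected counts (estimated counts, some fractional) of 753 mature miRNAs, unscaled as deposited. For its own tests the study normalized the data to each group's median level and mean centred them. The submitters' processing notes name cutadapt, Partek and build rn5. Versions and the miRNA annotation are not given in the sources used here. RefSeq positions are on GRCr8 and were not converted.

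Counts were rounded, and a miRNA was dropped when at least 10 libraries held fewer than 10 of its reads. Ethanol and vehicle were compared with edgeR 4.0.16 (R 4.3.3, TMM factors, quasi-likelihood test, no covariates), with limma 3.58.1 and DESeq2 1.42.0 as alternatives. Replicates are rats, numbered as in the labels. Log2 CPM had a prior count of 2 and arm ratios one of 0.5. Two-sided exact permutation tests used all assignments of the libraries, and correlations 100000 permutations, with Benjamini-Hochberg adjustment over all miRNAs, hairpins or pairs. Calls used 0.05. The steps were checked on simulated data.

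Members, marker lists and the Dlk1-Dio3 list were chosen with earlier results of these data known. Every member was named. Outside the members, the rule named the 5 miRNAs most like their mean and, from the Dlk1-Dio3 list, the 3 most abundant and those with a raw p under 0.05. miR-409a and the miRNAs most like miR-127-3p were named after the values were seen.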

Additional observations from a re-analysis of the deposited data

Results flagged for a closer look

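In the vehicle group, rat 10 stood apart in miR-434-3p. Its log2 CPM was 12.73, the nearest vehicle library was at 12.51 and the lowest at 12.48, so that the gap was 0.881 of the group's whole range. It was the only such case among 26 groups of values (9 levels and 4 arm ratios in each treatment group), where chance gives about 1 in 20, or 1.3. Without vehicle rat 10 the log2 fold change of miR-434-3p was 0.09, in place of 0.02.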

How the results depend on the processing

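The count of members with an adjusted p under 0.05 was 0 under all 24 alternative fits. That with a raw p under 0.05 was 0 except for 2 in the 4 libraries of rats 19 to 24 alone. These were the 2 arms of miR-434, both higher after ethanol, where 7.86% of all 420 miRNAs had such a p. The lowest adjusted p of a member there was 0.61. Of 216 fold changes of members under these fits, 13 changed sign. They were miR-434-3p with library totals alone (−0.01), miR-136-5p with at least 10 reads in at least 10 libraries (0.01), in rats 3 to 16 alone miR-434-3p (−0.09) and miR-434-5p (−0.06), in rats 19 to 24 alone miR-136-5p (0.15), miR-433-3p (0.02) and miR-433-5p (−0.14), and the rest when single rats were left out (miR-136-5p −0.06 to 0.03, miR-434-3p −0.01 to 0.09). For miR-127-3p, leaving out 1 rat gave 0.04 (without ethanol rat 16) to 0.20 (without ethanol rat 3).

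Arm ratio differences changed sign for miR-127 when single rats were left out (−0.06 to 0.09), in rats 3 to 16 alone (−0.01) and in rats 19 to 24 alone (−0.09). For miR-433 it was −0.37 in rats 3 to 16 alone, past the threshold, and 0.17 in rats 19 to 24 alone. The median r of member pairs was 0.36 with library totals alone and 0.35 without ethanol rats 3 and 16, against 0.16, and 0.07 to 0.20 without single rats. The r of miR-127-3p with miR-127-5p was 0.17 without those 2 rats. The causes were not tested. The fits with the libraries of rats 19 to 24 as a term or alone, those with a choroid plexus covariate and those without ethanol rats 3 and 16 were chosen after seeing the data. No paired analysis was possible because the groups share no replicate numbers. Depth limits miR-433-5p most, at 37 to 84 counts per library.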
